A study of Homo sapiens with 4 samples.

Results

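The genes described here encode the nuclear pore complex and the soluble machinery of nuclear transport. They were chosen by gene symbol alone, as the numbered nucleoporins (NUP), TPR, RANBP2, the importins and karyopherins (IPO, KPNA, KPNB), the transportins (TNPO), the exportins (XPO, XPOT, CSE1L, with XPO5 left out) and RAN with its regulators RCC1 and RANGAP1. This rule found 50 of the 61498 genes in the deposited tables, and no expression value entered it. Poly(A) RNA was sequenced from K562, a human erythroleukaemia cell line, in 2 untreated libraries and in 2 libraries from cells kept in 50 µM hemin for 108 h. Hemin is an iron-containing porphyrin that drives these cells toward the erythroid state, and per the labels this dose left proliferation unaffected. The labels give both groups the same medium and the same preparation, and they name a single cultured line, so the values describe K562 cells and not primary erythroid cells. The comparison asks how the pore and its transport factors were expressed once differentiation had been induced.

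The nuclear pore complex is a channel through the nuclear envelope, built from scaffold rings of nucleoporins and filled with nucleoporins rich in phenylalanine-glycine (FG) repeats. Importins carry cargo into the nucleus and exportins carry it out, and the direction is set by the small GTPase Ran, which is kept GTP-bound in the nucleus by RCC1 and is driven to hydrolyse GTP in the cytoplasm by RANGAP1. Cells of the erythroid lineage later condense the nucleus and, in mammals, expel it.

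The expected counts, the number of reads that RSEM assigned to each gene, summed to between 7455447 and 8241534 per library. All 9 erythroid markers were read in every library, with GATA1, a master regulator of the lineage, at 113 to 121 TPM (a level scaled by transcript length and summing to the same total in each library). Of the markers of lymphocytes, monocytes, fibroblasts and endothelium, all 9 stayed at or below 1.32 TPM. The epithelial markers were read at 42.4 to 49.2 TPM for EPCAM and, for KRT8, at 187 and 201 TPM in the untreated libraries and 135 TPM in both hemin libraries. KRT8 thus moved with the treatment, and its part in the results was not tested. In bulk RNA, a change in the mix of cells and a change in RNA per cell cannot be told apart.

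Most genes of the pore and of nuclear transport were slightly higher in the hemin-treated cells, and none of the tested ones changed 2-fold. Of the 50 genes, 49 passed the filter on low counts. KPNA7, an importin alpha, had 0 counts in all 4 libraries, which allows at most 0.364 to 0.402 CPM (counts scaled to a common library size). The edgeR quasi-likelihood test with Benjamini-Hochberg adjustment over all 14458 tested genes called 18 of the 49 higher and 2 lower at an adjusted p under 0.05. These were 36.7% and 4.08% of the members, beside 7.00% higher and 7.14% lower among all tested genes. The median log2 fold change of the members was 0.12, which is 8.88% higher, against a median of -0.0048 over all tested genes. A positive fold change was fitted for 41 of the 49 members, compared with 49.1% of all genes. With library totals in place of TMM factors it was fitted for 38, beside 42.8% of all genes, and on the log2(TPM + 1) scale for 34, beside 45.1%. Both hemin libraries lay above both untreated libraries, in CPM scaled by TMM, for 34 members and below them for 6, where 28.1% and 29.3% of all tested genes did so. The 95% intervals of all 49 members lay between -0.63 and 0.60 on the log2 scale, or between 0.647-fold and 1.52-fold.

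**Figure D1:**
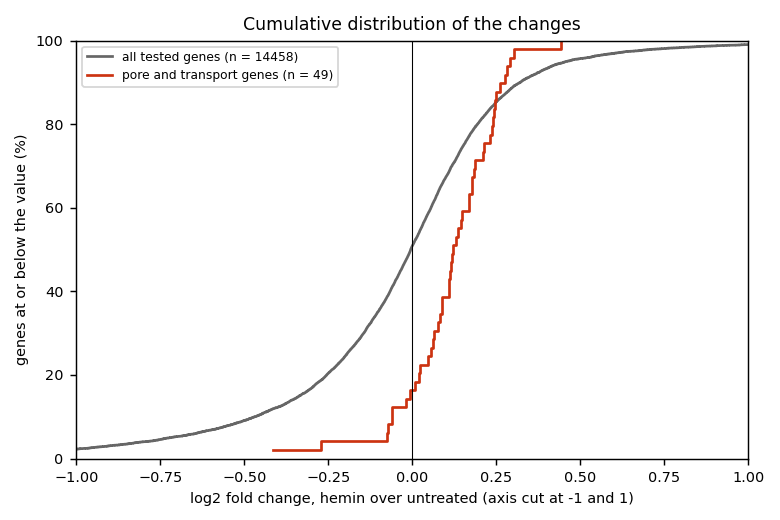
Cumulative share of genes (vertical axis, %) at or below each log2 fold change of hemin over untreated (horizontal axis, cut at -1 and 1), for all 14458 tested genes and for the 49 tested pore and transport genes. The members' curve lies to the right of the other around its middle, with a median of 0.12 against -0.0048, and it spans only -0.41 to 0.44.

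These counts depended on the libraries and on the measure. With each library left out in turn, fewer members were called higher and fewer lower, and the same held for all tested genes. The members' median log2 fold change then lay between 0.12 and 0.16. With library totals alone, 14 members were called higher and 2 lower, the calls of NUP98, NUP188, RCC1 and TPR being lost, while the calls over all genes split into 729 higher and 1358 lower instead of 1012 and 1033. At an unadjusted p under 0.05, edgeR put 25 members higher and 2 lower, beside 14.8% and 14.6% of all genes. On the log2(TPM + 1) scale, limma called 0 members at an adjusted p under 0.05, where it called 0.0968% of all genes higher and 0.228% lower. At an unadjusted p under 0.05 it put 8 members higher and 2 lower, beside 6.70% and 11.6% of all genes. The groups of 5 of the 20 called members overlapped in TPM, those of RCC1, NUP98, NUP214, IPO7 and NUP188. The log2 fold change of 11 of the 20 was more than 1.5 times smaller on the log2(TPM + 1) scale than in the count test. The abundance-weighted transcript length was longer in both hemin libraries than in both untreated ones for 16 tested members. It was shorter in both for 7, beside 14.6% longer and 14.9% shorter among all tested genes. The part of length in the difference between the measures was not tested.

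Summed over all members, the TPM values were 3967 and 3945 in the untreated libraries and 4198 and 4297 in the hemin libraries, so the groups did not overlap. For the 23 nucleoporins alone the sums were 1512 and 1458 and then 1484 and 1606, and the groups overlapped. The 27 transport factors, RAN among them, were separate, at 2455 and 2487 and then at 2714 and 2690. Among them, the Ran cycle genes (806 and 853, then 999 and 936) and the importin beta family (888 and 894, then 962 and 992) were separate. The groups overlapped for the importin alpha genes (328 and 323, then 324 and 312) and the exportins (434 and 416, then 428 and 450). RAN was by far the most abundant transcript, at 730 ± 26.1 TPM in the untreated cells (SD, n = 2) and 865 ± 35.0 TPM after hemin. KPNB1, the importin beta that carries most classical import cargo, followed at 255 ± 17.3 TPM in untreated cells. Next came NUP214 at 184 ± 15.3 TPM and KPNA2 at 172 ± 7.78 TPM, whose ranges overlapped. The members above 100 TPM in untreated cells numbered 10, and in order they went on with IPO5, IPO7, XPO1, NUP210, XPOT and NUP107. KPNA5 was the lowest expressed gene, at 8.39 ± 1.19 TPM. The median over the 49 expressed members was 53.0 TPM. Of the 48 neighbouring pairs in this order, 33 had ranges that overlapped between their libraries. After hemin, 9 of the 10 most abundant members were the same, and NUP107 moved from rank 10 to rank 16.

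**Figure D2:**
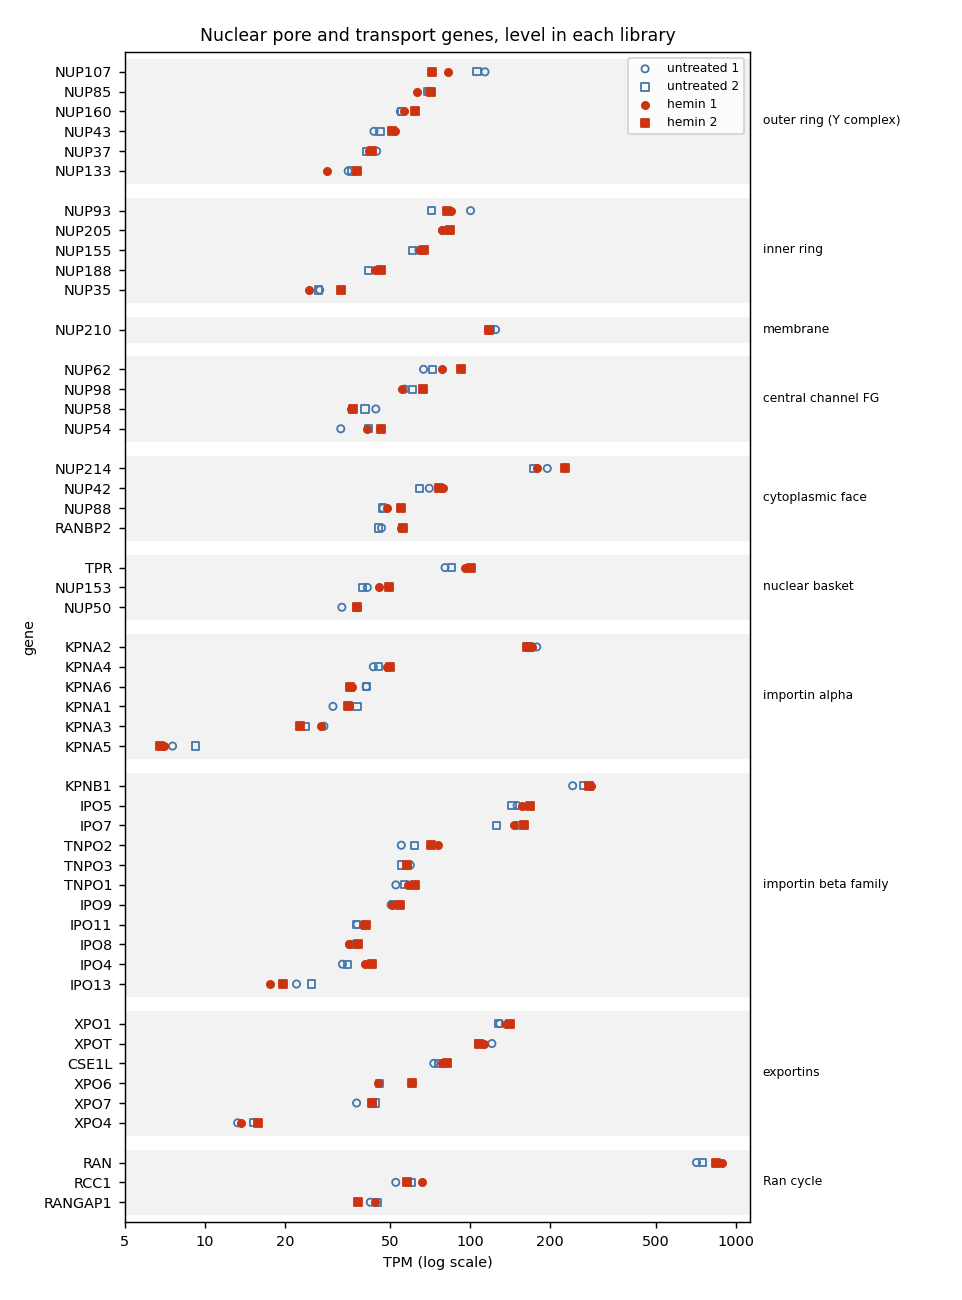
TPM of each expressed member (horizontal axis, log scale) by structural or transport role, with open blue symbols for the 2 untreated libraries and filled red symbols for the 2 hemin libraries, circles for replicate 1 and squares for replicate 2. RAN stands apart at the right, at 712 to 890 TPM, and NUP107 heads the outer ring in the untreated libraries at 106 and 114 TPM against 82.1 and 71.6 TPM after hemin.

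A feature of these genes that the choice by name did not use was the sequence around their RefSeq start sites. RefSeq promoter windows (GRCh38.p14, mostly upstream of the start) were found for 44 of the 50 members and for 80.7% of the tested protein-coding genes. The windows were searched on both strands for CACGTG, the E-box read by MYC, MAX, USF and related factors, for the CCAAT box, and for TGCGCA, a part of the motif of NRF1. The E-box and the last of these motifs each read the same on both strands, and a match of one can share bases with a match of the other. The E-box occurred in 8 of the 16 promoters of members called higher that had an entry (50.0%), in RAN, RCC1, NUP50, NUP188, XPO1, IPO4, IPO7 and TNPO2. Among the members that were not called, it occurred in 1 of 27 (3.7%), the promoter of KPNA3, and NUP107, the only called-lower member with an entry, had no match. The share was 13% over all tested protein-coding genes, 24% for those called higher, 9.12% for those called lower and 12.3% for those not called, and it was 7.26% of all windows in the table. Over all 44 member promoters, the E-box share was 20.5%. CCAAT was found in 47.7% of the member promoters and 43.8% of those of all tested protein-coding genes. The NRF1 letters were found in 18.2% and 16.7%. Over all windows in the table, these shares were 34.6% for CCAAT and 8.24% for the NRF1 letters. By call, the NRF1 letters occurred in 5 of 16 promoters of members called higher (31.2%) and 3 of 27 not called (11.1%). For CCAAT, the shares by call were 43.8% and 48.1%. Among all tested protein-coding genes, the NRF1 letters occurred in 18.6% of those called higher, 14.3% called lower and 16.7% not called. By the GENCODE annotation, the stretches of 53 and 48 bases around the matches in IPO4 and TNPO2 lay wholly in exons of these genes, and those of RCC1 and XPO1 lay inside the span of the gene, so these 4 are not upstream of every annotated start. A match describes letters in a window and not a bound site, and these shares were not tested.

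The E-box is shown in capitals within its neighbouring bases for 5 genes that were called higher and for KPNA3, which was not. The stretches, each read 5′ to 3′ on the strand of its gene, are chr12:130871940-130871993 (plus strand) for RAN, chr22:45163727-45163780 (plus) for NUP50, chr9:128947598-128947651 (plus) for NUP188, chr2:61537102-61537155 (minus) for XPO1, chr11:9384490-9384543 (plus) for IPO7 and chr13:49792719-49792772 (minus) for KPNA3. The first base of the match lay 102 bases before the RefSeq start for RAN, 174 for NUP50, 77 for NUP188, 44 for XPO1, 138 for IPO7 and 66 for KPNA3. NUP188 had another match, 30 bases before its start.
RAN: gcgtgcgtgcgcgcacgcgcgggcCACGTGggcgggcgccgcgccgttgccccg
NUP50: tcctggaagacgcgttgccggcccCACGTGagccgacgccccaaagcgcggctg
NUP188: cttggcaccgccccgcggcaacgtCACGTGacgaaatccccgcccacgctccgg
XPO1: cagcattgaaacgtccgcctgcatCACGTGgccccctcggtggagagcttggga
IPO7: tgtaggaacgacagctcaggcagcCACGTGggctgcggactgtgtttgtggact
KPNA3: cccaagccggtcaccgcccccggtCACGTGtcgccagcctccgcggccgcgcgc

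The Ran cycle was examined first, because it gives transport its direction. RAN and RCC1 rose, and RANGAP1 was not called. RAN (ENSG00000132341, chromosome 12, 130872037 to 130877678, plus strand, GRCh38) was read at 324 and 352 CPM in the untreated libraries and at 415 and 395 CPM after hemin. Both hemin libraries were above both untreated ones, and the log2 fold change was 0.26 ± 0.05 (SE, edgeR adjusted p = 0.00998). RCC1, the chromatin-bound exchange factor that loads Ran with GTP, was read at 83.2 and 91.3 CPM and then at 109 and 98.0 CPM. Its groups did not overlap in CPM either, but they lay closer, with a log2 fold change of 0.25 ± 0.07 (edgeR adjusted p = 0.047). RANGAP1 was at 96.6 and 95.5 CPM in untreated cells and at 91.3 and 93 CPM in hemin-treated cells, and its log2 fold change of -0.06 had a 95% interval of -0.18 to 0.06. The ratio of RAN to RANGAP1 in TPM was 17.0 and 16.8 in the untreated libraries and 20.4 and 22.2 in the hemin libraries, whereas that of RAN to RCC1 was 13.6 and 12.5, and then 13.5 and 14.5. Without untreated replicate 1, the edgeR adjusted p was 0.0655 for RAN and 0.23 for RCC1, and for RCC1 it was also 0.0603 without untreated replicate 2, 0.186 without hemin replicate 1 and 0.0698 with the replicate number as a block. In TPM the groups of RCC1 overlapped, at 52.4 and 59.8 before and at 65.8 and 57.9 after. The exons of RCC1 share 6.22% of their bases with SNHG3, a non-coding RNA gene on the same strand that had 2775 and 2683 counts in untreated cells and 3107 and 3245 after hemin.

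All 3 genes of the nuclear basket, the fibrous structure on the nuclear side of the pore, were called higher after hemin, beside 7.00% of all tested genes. NUP50, a mobile nucleoporin that binds importin alpha, was read at 84.0 and 82.9 CPM in the untreated libraries and at 103 CPM in both hemin libraries. The replicates were nearly equal within each group, and the log2 fold change was 0.30 ± 0.053 (edgeR adjusted p = 0.00656). In TPM it was at 32.8 and 37.3 and then at 37.4 and 37.5, and the difference on the log2(TPM + 1) scale was only 0.095. NUP153, which anchors the basket, rose from 174 and 169 CPM to 197 and 217 CPM, a log2 fold change of 0.28 ± 0.054 (edgeR adjusted p = 0.0108). TPR, the coiled-coil protein that forms the basket filaments, rose from 389 and 392 CPM to 428 and 449 CPM. The groups of each gene were separate, and for TPR the log2 fold change was the smallest of the 3, at 0.17 ± 0.042 (edgeR adjusted p = 0.0277). NUP153 lost its call without untreated replicate 2 (edgeR adjusted p = 0.0634), and TPR without untreated replicate 1 (0.111), untreated replicate 2 (0.0878) or hemin replicate 2 (0.13), or with library totals alone (0.058). The exons of NUP153 share 10.6% of their bases with an antisense gene, NUP153-AS1.

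On the cytoplasmic face, RANBP2 and NUP214 rose, whereas NUP88 and NUP42 were positive but were not called. RANBP2, the giant nucleoporin of the cytoplasmic filaments that binds Ran and acts as a SUMO ligase, was at 373 and 367 CPM in untreated cells and at 441 and 458 CPM in hemin-treated cells. The gap between the groups was several times the gap between replicates, and its log2 fold change of 0.28 ± 0.041 had the lowest adjusted p of all members (edgeR adjusted p = 0.00318). NUP214, at which exported messenger ribonucleoproteins are remodelled, was at 467 and 415 CPM and then at 518 and 522 CPM. Its untreated replicates differed more than its hemin replicates, and the log2 fold change was 0.24 ± 0.054 (edgeR adjusted p = 0.0205, and 0.0916 without untreated replicate 2). K562 cells are known to carry a rearrangement that joins NUP214 to XKR3, and XKR3 was read by 35 and 54 counts in untreated cells and by 63 and 51 counts after hemin. How many of the NUP214 reads came from the fused gene was not tested. NUP42, the smallest change of this group, had a log2 fold change of 0.11 with a 95% interval of -0.05 to 0.27.

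Of the FG nucleoporins of the central channel, NUP62 and NUP98 rose and the other two were not called. NUP62, which lines the channel, was read at 129 and 128 CPM in untreated cells and at 152 and 162 CPM after hemin. Both groups were tight compared with the distance between them, and the log2 fold change was 0.29 ± 0.052 (edgeR adjusted p = 0.00687). NUP98, which binds transport receptors through its FG repeats, went from 174 and 171 CPM to 198 and 193 CPM, a log2 fold change of 0.18 ± 0.044 (edgeR adjusted p = 0.0261). In TPM the groups of NUP98 overlapped, at 56.6 and 60.7 before and at 55.1 and 66.5 after. NUP58, a partner of NUP62 in the same subcomplex, was at 102 and 100 CPM and then at 92.9 and 99.2 CPM, with a log2 fold change of -0.07 (95% interval -0.20 to 0.05). Its values were lower in both hemin libraries, but the test did not call it (edgeR adjusted p = 0.437). The call of NUP98 was lost with each library left out (edgeR adjusted p from 0.0516 to 0.106) and by DESeq2 (adjusted p = 0.0646).

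The outer and inner rings make up the scaffold of the pore. Of the 6 genes assigned here to the outer ring, whose Y-shaped complex coats the membrane, 0 were called higher and NUP107 was called lower. Among all tested genes, 7.00% were called higher and 7.14% lower. Each gene was given a single role, and NUP98, which was called higher, was counted in the central channel only. The 6 genes are therefore not a full account of the ring. NUP107 (ENSG00000111581, chromosome 12, 68686951 to 68745809, plus strand) was at 115 and 119 CPM in the untreated libraries and at 96 and 97.8 CPM in the hemin libraries. The groups were well apart, with a log2 fold change of -0.27 ± 0.052 (edgeR adjusted p = 0.0102), and the adjusted p was 0.0576 without untreated replicate 2. In TPM the values were 114 and 106, and then 82.1 and 71.6. The abundance-weighted transcript length was 1470 and 1606 bases in the untreated libraries and 1654 and 1907 bases in the hemin libraries. The drop was larger in TPM than in CPM, and the part of length in this was not tested. NUP43, a beta-propeller protein of the same complex, was at 85.0 and 95.9 CPM and then at 103 CPM in both hemin libraries. Its log2 fold change, the most positive of the ring, was 0.19 and missed the threshold (95% interval 0.04 to 0.33, edgeR adjusted p = 0.0883), and it passed without the count filter (0.0286), on posterior mean counts (0.0477) and without untreated replicate 2 (0.0449).

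In the inner ring, which lies between the outer rings, all 5 genes had positive fold changes, although NUP93 was at -0.027 on the log2(TPM + 1) scale, and NUP188 was called. NUP188, a large scaffold protein, rose from 152 and 151 CPM to 172 and 173 CPM, and the log2 fold change was 0.18 ± 0.044 (edgeR adjusted p = 0.0242). In TPM its groups overlapped, at 44.8 and 41.4 before and at 43.7 and 46.0 after, and the difference on the log2(TPM + 1) scale was 0.057. The call was lost with each library left out (edgeR adjusted p from 0.054 to 0.0883) and by DESeq2 (adjusted p = 0.0714). NUP93, which links this ring to the central channel, had the smallest change, a log2 value of 0.06 with a 95% interval of -0.07 to 0.19. NUP210, an integral membrane nucleoporin and the only one in the list, was at 576 and 563 CPM in untreated cells and at 578 CPM in both hemin libraries. Its log2 fold change was 0.02, with a 95% interval of -0.07 to 0.11, and with library totals alone it was -0.018. Over all 23 nucleoporins, 8 were called higher and 1 lower, with a median log2 fold change of 0.13. These were 34.8% and 4.35%, beside 7.00% and 7.14% of all tested genes.

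**Figure D3:**
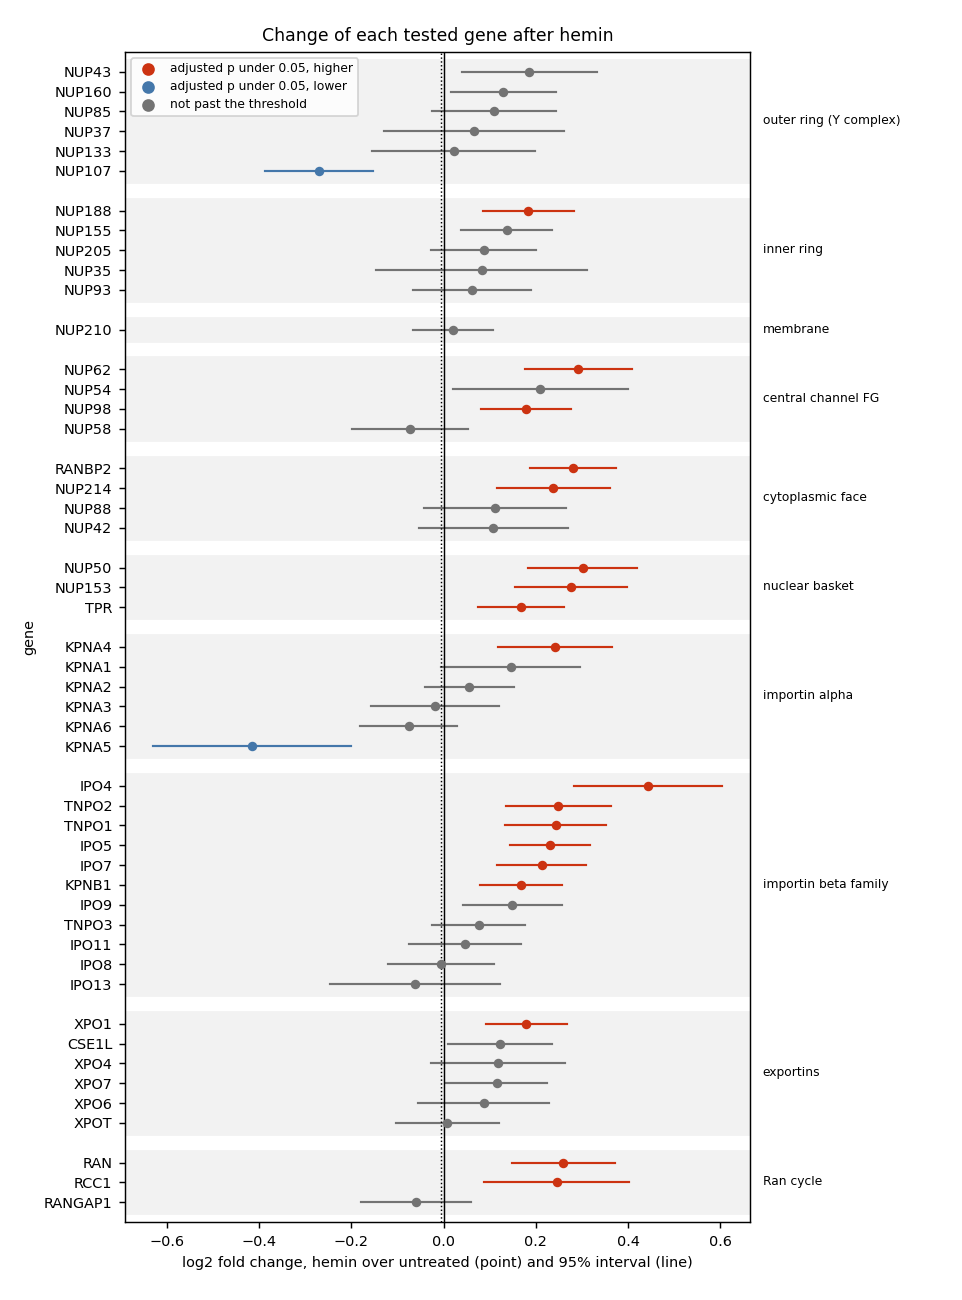
Fitted log2 fold change of hemin over untreated (points) with 95% intervals (lines) for the 49 tested members by role, red where called higher, blue where called lower and grey where the adjusted p was 0.05 or more. The dotted line marks the median of all tested genes. The 3 basket genes lie to the right of 0, NUP107 and KPNA5 are the only called members to the left of it, and no interval reaches a 2-fold change.

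Among the transport receptors, the importin beta family had the most called members, with 6 of 11 higher and 0 lower at a median log2 fold change of 0.17. The share called higher was 54.5%, where all tested genes had 7.00% higher and 7.14% lower. IPO4, which imports histones, changed most of all members. It was read at 66.4 and 72.9 CPM in the untreated libraries and at 89.9 and 99.0 CPM in the hemin libraries. The groups did not overlap, and the log2 fold change was 0.44 ± 0.071, or 36.0% (edgeR adjusted p = 0.00463). IPO4 (chromosome 14, 24180219 to 24188869, minus strand) shares 68.7% of its exonic bases with a read-through gene on the same strand, ENSG00000259522. No expected count was assigned to that gene in any library, and the posterior SD of the count of IPO4, which reflects the division of shared reads, was at most 2.09%.

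IPO5, an importer of ribosomal proteins and histones, rose from 368 and 367 CPM to 430 and 432 CPM. This was among the tightest pairs of replicates, with a log2 fold change of 0.23 ± 0.038 (edgeR adjusted p = 0.00538). IPO7, which also carries ribosomal proteins and histones, rose from 487 and 495 CPM to 552 and 586 CPM, a log2 fold change of 0.21 ± 0.043 (edgeR adjusted p = 0.0123). IPO8, its closest relative, did not follow: it was at 101 and 102 CPM, and then at 100 and 102 CPM, with a 95% interval of -0.12 to 0.11 on the log2 scale. The intervals of IPO7 (0.12 to 0.31) and IPO8 did not overlap, although the difference between them was not tested. Without untreated replicate 1, IPO7 was not called (edgeR adjusted p = 0.0717).

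TNPO1, the receptor of many RNA-binding proteins, rose from 199 and 212 CPM to 237 and 249 CPM, and its close relative TNPO2 from 108 and 104 CPM to 126 CPM in both hemin libraries. The log2 fold changes of this pair were almost equal, at 0.24 ± 0.049 (edgeR adjusted p = 0.0116) and 0.25 ± 0.051 (edgeR adjusted p = 0.0126). KPNB1 rose from 496 and 514 CPM to 569 and 566 CPM, a log2 fold change of 0.17 ± 0.039 (edgeR adjusted p = 0.0228). KPNB1 made up 27.4% to 29.9% of the family's summed TPM in all 4 libraries, and the groups overlapped in that share. IPO13, which both imports and exports, had the lowest fold change of the family, at -0.06 (95% interval -0.25 to 0.12), and its groups overlapped. The edgeR adjusted p without untreated replicate 1 was 0.0754 for TNPO1 and 0.118 for KPNB1, and without untreated replicate 2 it was 0.0693 for TNPO2 and 0.0511 for KPNB1.

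The importin alpha genes, the adaptors that read the classical import signal for KPNB1, moved in both directions. KPNA4 was called higher, KPNA5 was called lower, and 4 of the 6 tested genes were not called. Each call was 16.7% of the tested adaptors, beside 7.00% higher and 7.14% lower among all tested genes. KPNA4 was read at 98.4 and 105 CPM in untreated cells and at 118 and 122 CPM after hemin. Its groups did not overlap, and the log2 fold change was 0.24 ± 0.055 (edgeR adjusted p = 0.0206). KPNA3, the adaptor most like it, was at 63.2 and 63.6 CPM and then at 63.0 and 62.2 CPM, with a log2 fold change of -0.02 (95% interval -0.16 to 0.12). That interval overlaps the one of KPNA4 (0.12 to 0.37) only at its edge, and the difference was not tested. Without untreated replicate 1 the edgeR adjusted p of KPNA4 was 0.114, and without hemin replicate 2 it was 0.0749.

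KPNA5 (chromosome 6, 116681187 to 116741867, plus strand) fell from 26.7 and 27.2 CPM to 20.1 and 20.3 CPM. Its log2 fold change of -0.41 ± 0.095 corresponds to 0.75-fold (edgeR adjusted p = 0.0206). These values rest on 211 and 204 counts in untreated cells and 149 and 164 counts in hemin-treated cells, the smallest counts of any called member. The call was lost with each library left out (edgeR adjusted p from 0.056 to 0.0854) and by DESeq2 (adjusted p = 0.149). KPNA1 and KPNA6, of the same subfamily as KPNA5, had log2 fold changes of 0.15 (95% interval -0.01 to 0.30) and -0.08 (-0.18 to 0.03). KPNA2, the most abundant adaptor, was at 225 and 226 CPM and then at 239 and 230 CPM, and was not called (log2 fold change 0.06, 95% interval -0.04 to 0.15). KPNA2 supplied 54.3% and 51.6% of the importin alpha TPM in untreated cells, and 52.6% and 52.2% in hemin-treated cells, so its share overlapped between the groups. IPO8, KPNA3, KPNA1 and KPNA6 were added as relatives of called genes after their values had been seen.

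Of the 6 exportins, all had positive fold changes in the main test, beside 49.1% of all tested genes. Only XPO1 was called, or 16.7% of the exportins beside 7.00% of all tested genes called higher. XPO1, the main exporter of proteins with a leucine-rich signal, rose from 373 and 368 CPM to 416 and 424 CPM. The replicates were close within each group, with a log2 fold change of 0.18 ± 0.039 (edgeR adjusted p = 0.0169). XPOT, the exporter of transfer RNA, was at 251 and 249 CPM and then at 241 and 262 CPM, so the hemin libraries lay on either side of the untreated ones. Its log2 fold change was 0.01 (95% interval -0.10 to 0.12), and it was -0.03 with library totals alone. The edgeR adjusted p of XPO1 was 0.063 without untreated replicate 1, 0.0764 without untreated replicate 2 and 0.06 without hemin replicate 2. The remaining members of all roles, those not named here, were not called.

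Of the 20 called members, 5 kept an adjusted p under 0.05 in all 11 alternatives that used counts, each library left out included. These were RANBP2 and NUP62 of the pore, NUP50 of the basket, and the importins IPO4 and IPO5. DESeq2, which called 4.07% of all tested genes higher and 3.49% lower, called 16 of the 20. The 4 it did not call were NUP98, NUP188, RCC1 and KPNA5.

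**Figure D4:**
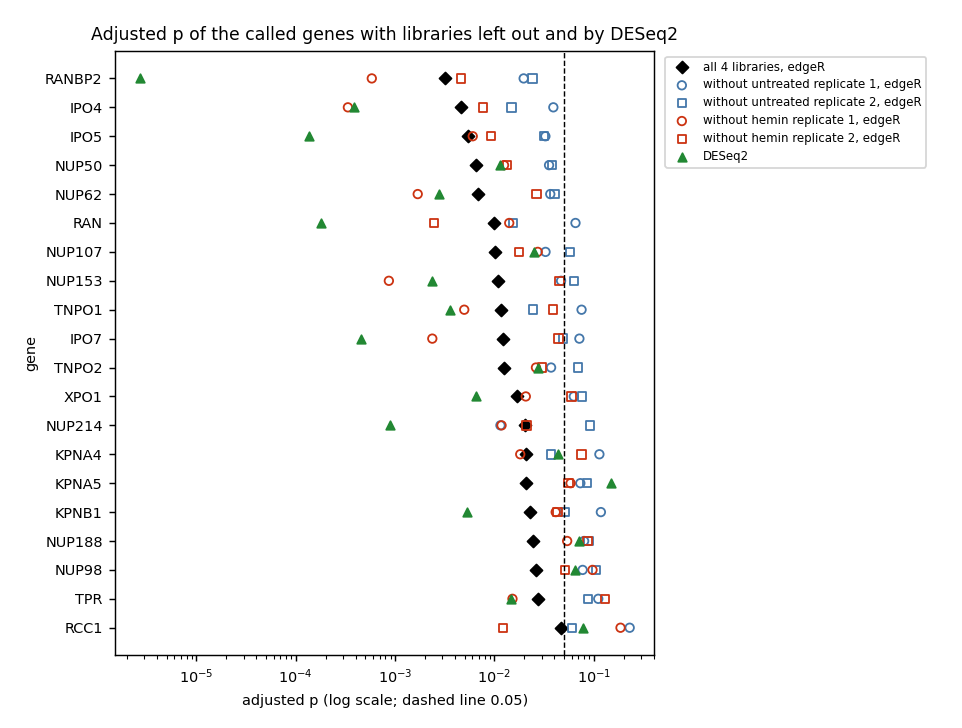
Adjusted p (horizontal axis, log scale) of the 20 called members with all 4 libraries by edgeR (black), with each library left out by edgeR (open blue for an untreated and open red for a hemin library) and by DESeq2 (green); the dashed line is the threshold of 0.05. RANBP2, IPO4, IPO5, NUP50 and NUP62 lie left of the line throughout, and RCC1 is nearest to it with all libraries, at 0.047.

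Genes of the pore and of transport that carry other symbols were taken as a further list. Of these 20 genes, 19 were tested, and 4 were called higher and 0 lower, or 21.1% against the 7.00% of all genes. At an unadjusted p under 0.05, edgeR put 9 of the list higher and 0 lower, beside 14.8% and 14.6% of all genes. DESeq2 called 3 higher and 0 lower, beside 4.07% and 3.49% of all genes. SNUPN, the import adaptor of spliceosomal RNA particles, was read at 8.60 and 8.28 CPM in untreated cells and at 12 and 12.6 CPM after hemin. The log2 fold change was 0.55 ± 0.156 (edgeR adjusted p = 0.0467). It rests on only 68 and 62 counts in untreated cells and 89 and 102 counts after hemin. The posterior SD of its count was up to 5.12%. POM121, a membrane nucleoporin, had a log2 fold change of 0.21 ± 0.045 (edgeR adjusted p = 0.0159), though it shares sequence with its copy POM121C, and the division of reads between them is uncertain. RANBP1, which helps RANGAP1 release Ran from its carriers, rose from 365 and 363 CPM to 424 and 413 CPM (log2 fold change 0.20 ± 0.04, edgeR adjusted p = 0.0108). NDC1, a membrane nucleoporin of the same list, was the other called gene, at 0.19 ± 0.043 (edgeR adjusted p = 0.0177). It fell outside the rule for which genes of the list to name, and it was named here after its value was seen. The number called higher in this list was 1 without untreated replicate 1, untreated replicate 2 or hemin replicate 2, 7 on posterior mean counts and 8 without the count filter.

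Messenger RNA leaves by a different route, which does not use Ran. Of 23 genes of that route, 3 were called higher and 1 lower (13% and 4.35%, beside 7.00% and 7.14% of all genes), with a median log2 fold change of 0.07. The export adaptor ALYREF was read at 86.2 and 84.7 CPM in untreated cells and at 116 CPM in both hemin libraries, a log2 fold change of 0.44 ± 0.051 (edgeR adjusted p = 0.00102). The helicase DDX39A and the THO subunit THOC1 had log2 fold changes of 0.26 ± 0.049 (edgeR adjusted p = 0.0082) and 0.26 ± 0.07 (edgeR adjusted p = 0.0401). THOC2, the large subunit of the same THO complex, was at 590 and 597 CPM and then at 511 and 549 CPM, with a log2 fold change of -0.16 ± 0.045 (edgeR adjusted p = 0.0397). THOC2 was the only gene of this list called lower, and 0 genes of this list were called lower without untreated replicate 1, untreated replicate 2 or hemin replicate 1. The number called higher was 1 without untreated replicate 1.

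Genes of DNA replication and the cell cycle moved with the same treatment. Of 13 such genes, 9 were called higher and 0 lower (69.2% beside 7.00%), with a median log2 fold change of 0.24. MCM5, a subunit of the replicative helicase, changed most, from 121 and 112 CPM to 189 and 193 CPM, a log2 fold change of 0.71 ± 0.052 (edgeR adjusted p = 0.000118). The other called genes were MCM2, MCM3, MCM4, MCM6, MCM7, PCNA, TYMS and RRM2, which act in DNA synthesis. The other 4 genes, MKI67, TOP2A, CCNB1 and CDK1, most of which peak in later phases of the cycle, were not called, and their log2 fold changes lay between -0.09 and 0.09. The number called higher was 5 without untreated replicate 1. Of the 9 erythroid markers, 3 were called higher (33.3% beside 7.00% of all tested genes) and 0 lower (beside 7.14%). What part cell-cycle state or the degree of differentiation had in the values of the pore and transport genes was not tested.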

How the data were processed

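Reads of 50 bases from polyadenylated RNA were obtained for 2 untreated and 2 hemin libraries of K562 cells. Per the submitters' processing notes, the authors used Trimmomatic 0.39, STAR 2.7.5c and RSEM 1.3.1, with the Ensembl annotation on GRCh38. The expected counts deposited by the authors are unnormalized estimates, in which a read that could belong to several genes is shared out. Posterior mean counts, deposited beside them, and the deposited posterior SD, a score in reads, describe how firmly it was shared. The authors' TPM are scaled by effective length. The gene names came from the authors' tables of mean TPM. The deposited tables of FPKM were not used. No strand setting is given for RSEM, so reads of a gene and of an antisense partner may not be told apart.

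Expected counts were rounded, filtered with filterByExpr, scaled by TMM (factors 0.983 to 1.018) and tested with edgeR 4.0.16 in R 4.3.3 by its quasi-likelihood test on treatment alone. P-values were adjusted by Benjamini-Hochberg over all 14458 genes, with a threshold of 0.05. CPM are TMM-scaled. A count of 0 was taken to allow up to 3 counts, which covers counting error only. Coordinates and exon overlaps came from GENCODE, which held 61399 of the 61498 gene IDs, and promoter windows from RefSeq (GRCh38.p14). The edgeR test was checked on simulated counts with the same dispersion for every gene. Recovery was required there only for changes larger than any fitted for a member, so the check does not cover the recovery of changes as small as theirs. Nothing in the labels says that the 2 libraries of a group came from separate cultures, so p-values measure only the spread between these libraries, which may be technical.

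The members, lists and motifs were chosen with earlier results of these data known. Named members were all called ones, the extremes of fold change and the highest TPM in each role. The alternatives were RLE factors, library totals alone, DESeq2 1.42.0, the filter dropped or raised to 20 counts, posterior mean counts, omission of each library, a block for replicate number, and limma 3.58.1 on log2(TPM + 1) and log2(TPM + 0.1). Protein sequences were not analysed here.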

Additional observations from a re-analysis of the deposited data

How the results depend on the processing

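With 2 libraries per group, a library left alone was assumed to vary like the others. Leaving out each library moved the members called higher between 8 and 15 and those called lower between 0 and 1, the other pore and transport genes called higher between 1 and 4, the mRNA export genes called higher between 1 and 4 and lower between 0 and 1, the proliferation genes called higher between 5 and 8, all genes called higher between 451 and 856 and lower between 487 and 862, and the members' median log2 fold change between 0.12 and 0.16. That median was 0.08 with library totals alone and 0.07 by limma on either TPM scale.

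limma on log2(TPM + 1) and on log2(TPM + 0.1) called 0 members in either direction, 0 other pore and transport genes, 0 mRNA export genes higher or lower, and 1 proliferation gene higher; over all genes it called 14 and 15 higher and 33 and 34 lower. DESeq2 called 1 member lower, and 589 genes higher and 505 lower in all. The other pore and transport genes called higher were 8 with no count filter and 7 on posterior mean counts.

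The replicate numbers share no stated origin, and the deviations of same-numbered libraries correlated at 0.00473. The replicate block left 17 members higher and 2 lower, ended the call of RCC1 among the named members, and left 0 mRNA export genes lower.

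A few small changes turned direction, none of them called. IPO8 was 0.016 by limma on both scales, 0.0066 with no filter, and between -0.023 and 0.011 over the libraries left out (0.0014 without untreated replicate 2). IPO13 lay between -0.14 and 0.0069, the latter without hemin replicate 1. By limma on log2(TPM + 0.1) and log2(TPM + 1), KPNA2 was -0.049 and -0.048, and on both scales NUP210 was -0.051, NUP93 -0.027 and XPOT -0.049. With library totals alone NUP210 was -0.018 and XPOT -0.03, and XPOT lay between -0.058, without hemin replicate 2, and 0.071 over the libraries left out. The cause was not tested.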
